A study of Rattus norvegicus with 18 samples.

Results

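MSCs of miR-337-/- rats (KO) were compared with MSCs of wild-type rats (WT) under cyclic mechanical stretch (CMS), to ask how stretched cells of the genotypes differ in their transcripts. The comparison takes 6 of the 18 RNA-seq libraries of the study, which are the 3 of KO CMS and the 3 of WT CMS, chosen by their labels. Both groups were bone marrow MSCs of 2-month-old SD rats at passage 3, starved of serum for 8 h and then stretched by 10% for 24 h, a time that the study's methods give as shorter. The other 12 libraries, KO and WT cells kept without serum (SSt) or given serum (FBS), are used only in the closing comparison of treatments. Of 32623 genes, 12496 were tested, those that reached 1 FPKM (fragments scaled to transcript length and library total, a level per length and depth) in any 3 of the 6 libraries. The knockout was a deletion carried by the whole animal, and the cells were adherent marrow cells grown on collagen-coated flexible plates, for which no sort is described. Each genotype was grown as its own culture, so genotype and culture cannot be told apart. No source says if a group's 3 libraries were separate rats, plates or days, so the p-values rest on a spread between samples that may be technical.

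MicroRNAs lower the output of messenger RNAs by pairing mainly through their seed, the bases near the 5′ end, with sites that lie mostly in 3′ untranslated regions. The study placed miR-337-3p upstream of Irs1, the adaptor that links the insulin and IGF1 receptors to PI3K, Akt and mTOR, a pathway that promotes growth and division. Stretch reaches cells through adhesion receptors, ion channels such as Piezo1 and the coactivators Yap1 and Wwtr1, which act with TEAD factors on growth genes. Cultures of marrow that adhere to plastic also retain macrophages, which share many inducible cytokine genes with stromal cells.

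The mature arms of the deleted microRNA are shown because every comparison rests on their loss. They are RefSeq sequences of build GRCr8 on the plus strand, with the seed (bases 2 to 8) in capitals. The 3p arm lies at chr6:134321201-134321223 and the 5p arm at chr6:134321170-134321190.
rno-miR-337-3p: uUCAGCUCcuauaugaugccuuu
rno-miR-337-5p: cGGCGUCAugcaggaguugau
The seeds of the arms differ. The row of Mir337 held 0 counts in all 18 libraries, WT included, so these gene counts do not show the deletion.

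Promoters are shown for the gene groups that moved furthest, with the motifs of factors known to act on such genes in capitals. RefSeq promoters of GRCr8 (250 bases before to 50 after the start) were searched on both strands. The kappa-B letters, here GGG, any 2 bases and TTTCC, a form bound by NF-kappa-B, stood in 8 of 21 promoters (38.1%) of cytokine and chemokine genes called higher in KO and in 1.51% of 27457 promoters of all genes. The letters TTTGAA, the cell cycle homology region of mitotic genes, stood in 23 of 31 promoters (74.2%) of mitosis genes called lower in KO and in 18.1% of all promoters. The letters ACGTG, the core of the hypoxia response element, stood in 7 of 13 promoters (53.8%) of glycolysis and hypoxia genes called higher and in 19.7% of all. List members that were not called held the motifs in 1 of 16, 4 of 5 and 8 of 16 promoters respectively. The motifs were chosen after the values were seen, and a match describes letters only. The windows below are 30 bases long and were cut on the strand of the gene, at chr14:17467310-17467339 for the chemokine Cxcl2, chr4:5894624-5894653 for the cytokine Il6 and chr14:17596486-17596515 for the chemokine Cxcl6. Those of cell cycle genes lie at chr1:199952693-199952722 for Mki67, chr20:19265209-19265238 for Cdk1 and chr10:103572126-103572155 for Birc5. Those of glycolytic genes lie at chr17:71944880-71944909 for Pfkfb3 and chr5:138002459-138002488 for Slc2a1.
Cxcl2: cctaagctcaGGGGATTTCCctgatccctg
Il6: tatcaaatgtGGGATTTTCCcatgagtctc
Cxcl6: tccaaggcccGGGAATTTCCccagcatctt
Mki67: ttagcgccagaaTTTGAAccgccgttttcg
Cdk1: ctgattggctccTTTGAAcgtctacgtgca
Birc5: ccgcccgcgggtTTTGAAttagggattgtg
Pfkfb3: acccttctctccACGTGaaagggggctggg
Slc2a1: gtcccgccccggACGTGgtcctcaggcccc

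Depth was 57.12 to 71.08 M counts in KO CMS and 58.28 to 62.06 M in WT CMS, and 56.08 to 71.85 M over all 18 libraries. Mean correlations of log counts with the rest of the own group were 0.988 to 0.990 in the 6 libraries. KO CMS replicate 1 lay below KO CMS replicates 2 and 3 in many inflammatory genes. KO FBS replicate 1 correlated more with KO CMS (0.9825) than with the other KO FBS libraries (0.9792), which bears on the comparison of treatments alone. Lepr, the leptin receptor by which the study marks its MSCs, held 33 counts in the 3 KO libraries together and 0 in the 3 WT libraries, and was not tested. By flow cytometry, which measures protein rather than RNA, the study found nearly all of its cultured MSCs positive for LepR. Stromal markers were abundant, among them Thy1 at 417 and 262 FPKM on average in KO and WT, Pdgfra at 155 and 118 and Prrx1 at 179 and 133. Macrophage markers were abundant in all 6 libraries too, with Lyz2, Cd68, Tyrobp and Fcer1g each above 300 FPKM on average in both genotypes. Of 26 markers of other blood cells 13 were at 0 in all 6 libraries and 2 reached the limit for testing, the T cell antigen Cd2 at 2.25 FPKM on average in KO and 0.504 in WT and the platelet chemokine Pf4, which was abundant at 422 FPKM on average in KO and 497 in WT.

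Stretched KO cells carried more RNA of inflammatory mediators, of matrix metalloproteinases and of glycolytic enzymes than stretched WT cells. They carried less RNA of mitosis and DNA replication genes, of MHC class II genes and of the complement protein C1q. In the edgeR quasi-likelihood test with Benjamini-Hochberg adjustment, 4621 of 12496 genes (37%) passed an adjusted p of 0.05, 2284 higher in KO (18.3%) and 2337 lower (18.7%). With a fold of at least 2 as well, which is what a call means here, 943 genes (7.55%) were called, 422 higher (3.38%) and 521 lower (4.17%). The median log2 fold change over all tested genes was -0.00186. With library totals in place of TMM scaling the median was -0.0809 and 1602 genes passed as higher against 3202 as lower, and with upper quartiles 1772 and 2886. The 3 KO libraries all lay above the 3 WT libraries by FPKM for 17.5% of the tested genes and all below for 34.2%, since FPKM was not adjusted for composition while the test was. Leaving out each library in turn gave 881 to 1026 calls.

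**Figure D1:**
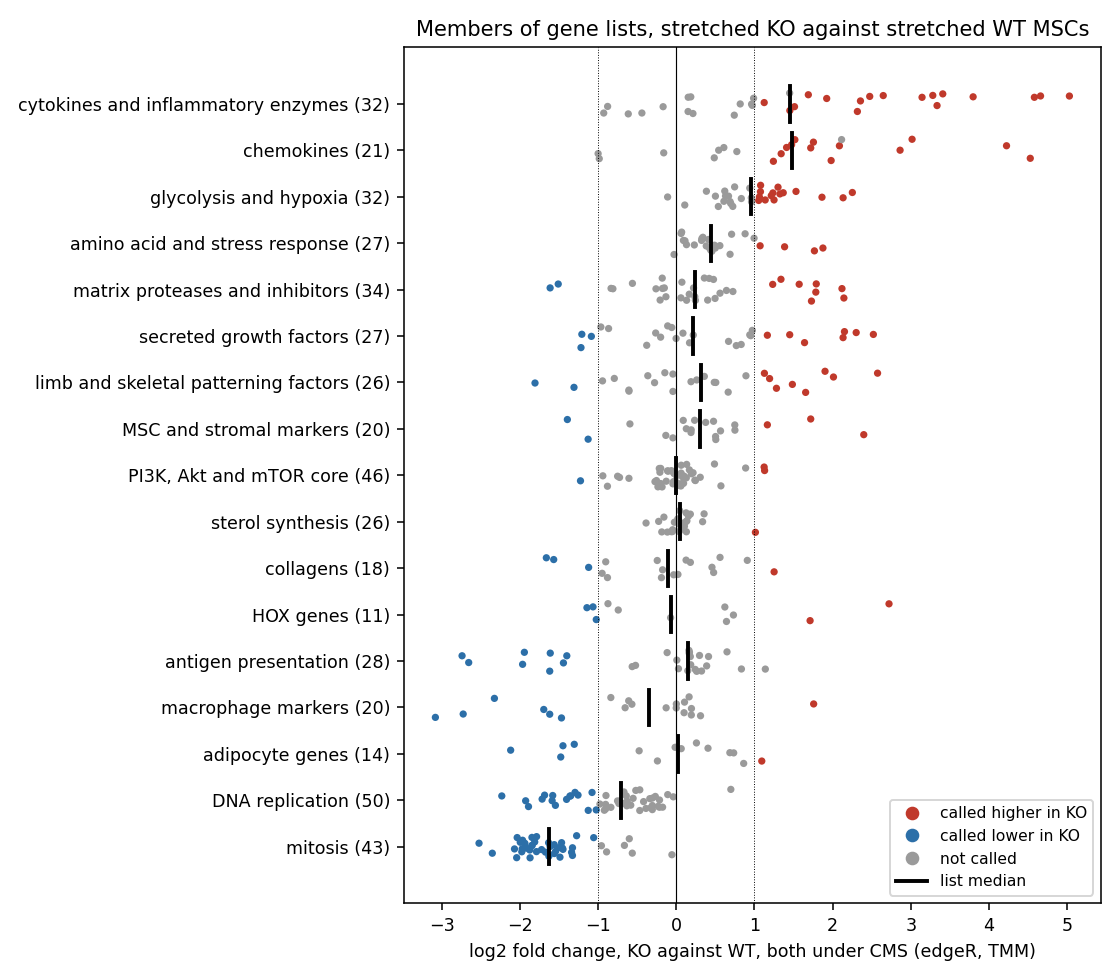
Log2 fold change of KO against WT under CMS (horizontal axis) for each tested member of 17 gene lists, 1 point a gene, with the number tested in brackets, list medians as black bars and dotted lines at a fold of 2. Cytokines and chemokines lie mostly to the right, with medians of 1.45 and 1.47, and mitosis genes lie almost wholly to the left, with a median of -1.63.

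The largest rise among genes of at least 5 FPKM was that of Serpinb2, a serine protease inhibitor induced by inflammation. It measured 23.6, 104 and 124 FPKM in KO and 0.981, 0.802 and 0.356 in WT. The KO libraries all lay far above WT, with replicate 1 the lowest of the 3 (log2 fold change 6.95, SE 0.744, adjusted p = 0.000372). Next among protein-coding genes came Nos2, the inducible nitric oxide synthase, which measured 40.4, 109 and 129 FPKM in KO and 4.36, 2.57 and 2.06 in WT (log2 fold change 5.03, SE 0.513, adjusted p = 0.000298). Complement factor B (ENSRNOG00000051158) measured 33.1, 43.9 and 51.2 FPKM in KO and 2.15, 1.91 and 1.29 in WT, a change of 4.66 with SE 0.239, and its KO libraries were close to one another. Further down stood Adora2a, an adenosine receptor of immune cells (3.53, adjusted p = 0.000163), and Acod1, which makes itaconate in activated macrophages (3.47, adjusted p = 0.000229). The pseudogene LOC100359515 (5.20, adjusted p = 0.000196) moved as far as Nos2.

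Among the falls, Aldh1a2, which makes retinoic acid, measured 1.57, 0.687 and 0.938 FPKM in KO and 14.4, 15.9 and 13.7 in WT, with the groups far apart (log2 fold change -3.71, SE 0.268, adjusted p = 7.11e-05). Tmem176b, a membrane protein of myeloid and stromal cells, measured 5.77, 5.69 and 5.3 FPKM in KO and 48.3, 53.5 and 53.9 in WT, and its libraries barely varied within a genotype (log2 fold change -3.14, SE 0.0649, adjusted p = 2.01e-06). A gene annotated as a microRNA, ENSRNOG00000036296, measured 0.0383, 0.0322 and 0.036 FPKM in KO and 10.3, 7.31 and 12.9 in WT, so that KO was near 0 (log2 fold change -5.87, SE 0.448, adjusted p = 8.83e-05). These levels rest on 3 counts in KO and 203 in WT, a ratio of 66.2 with an exact 95% interval of 22.3 to 324 for counting error only. Mboat7, an acyltransferase of phosphatidylinositol, had no count in the 3 KO libraries and measured 2.48, 2.99 and 7.34 FPKM in WT, at least 122-fold lower with 3 counts written for each library at 0. The myeloid genes Lilrb3, Pld4 and Ms4a6bl also stood among the lowest, at -2.70, -2.88 and -3.21.

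Cytokines and their enzymes were higher in stretched KO cells. Of 32 tested members of that list, 22 rose and 3 fell, with 17 called higher and none called lower, and the median log2 fold change was 1.45. Without each library in turn 21 to 24 members rose. Without KO CMS replicate 1, 21 were called higher and 2 lower, and 1 was called lower without WT CMS replicate 1 or with library totals. The interleukins Il1a and Il1b, which start inflammatory cascades, were far apart. Il1b measured 44.1, 119 and 163 FPKM in KO and 15.9, 8.57 and 7.97 in WT, so all KO libraries were above all WT libraries although replicate 1 was well below the other KO libraries (log2 fold change 3.41, SE 0.507, adjusted p = 0.00171). Il6, a cytokine of stromal cells and macrophages, measured 40, 41.7 and 49.4 FPKM in KO and 8.27, 9.67 and 6.92 in WT, with KO replicates close to one another (log2 fold change 2.47, SE 0.139, adjusted p = 3.34e-05). Il1rn, the antagonist of the IL-1 receptor, rose too and was the most abundant member, at 656, 781 and 812 FPKM in KO and 220, 212 and 194 in WT (log2 fold change 1.92, SE 0.09, adjusted p = 2.3e-05).

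Colony-stimulating factors and prostaglandin enzymes stood beside the interleukins. Csf3, which drives granulocyte production, measured 37.9, 82 and 92.9 FPKM in KO and 4.24, 3.09 and 2.04 in WT, with no overlap (log2 fold change 4.58, SE 0.411, adjusted p = 0.000172). Csf2, a growth factor of granulocytes and macrophages, averaged 5.42 ± 3.35 FPKM in KO and 0.569 ± 0.208 in WT and Csf1, the growth factor of macrophages, 201 ± 43.1 FPKM in KO and 108 ± 4.95 in WT, changes of 3.28 and 0.97. Ptges, the inducible synthase of prostaglandin E2, measured 126, 192 and 209 FPKM in KO and 23.2, 17.1 and 14.7 in WT (log2 fold change 3.33, SE 0.241, adjusted p = 7.11e-05), and Ptgs2, the cyclooxygenase before it, rose by 1.69 (adjusted p = 0.000766). The constitutive cyclooxygenase Ptgs1 fell by 0.44 on the log2 scale. The other members that fell were Il7, a lymphocyte growth factor of stroma (-0.93), and Il16 (-0.88).

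Acute phase and feedback genes of the list also rose. Lcn2, an iron-binding protein of innate immunity, averaged 150 ± 28.7 FPKM in KO and 25.2 ± 9.07 in WT, a change of 2.65, and the pentraxin Ptx3 changed by 2.32, haptoglobin (Hp) by 3.14 and complement C3 by 2.36. Tnfaip3 and Nfkbia, which damp NF-kappa-B, rose by 1.45 and 0.99, and Socs3, which damps cytokine receptors, by 1.12. Tnf measured 1.36, 16.3 and 19.6 FPKM in KO and 5.67, 4.38 and 4.38 in WT, with KO replicate 1 among the WT libraries, and did not pass (1.45, adjusted p = 0.179). Without KO CMS replicate 1 it passed (1.98, adjusted p = 0.00012). The summed level of the list was 1920 to 2690 FPKM in KO and 689 to 807 in WT.

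Chemokines, which draw leukocytes, followed the cytokines, and the promoter windows of Cxcl2 and Cxcl6 are among those shown above. Of 21 tested members 16 rose and 3 fell, with 13 called higher and none lower, and the median was 1.47. Without KO CMS replicate 2 or WT CMS replicate 1 only 1 fell. Called lower were 2 without KO CMS replicate 3, WT CMS replicate 2 or WT CMS replicate 3, 1 without KO CMS replicate 2, and 2 with library totals. Cxcl2, a neutrophil attractant, measured 64.6, 165 and 203 FPKM in KO and 8.91, 5.73 and 5.12 in WT (log2 fold change 4.53, SE 0.462, adjusted p = 0.000298). Ccl2, which draws monocytes, was the most abundant, at 1220, 1750 and 2080 FPKM in KO and 815, 659 and 626 in WT, and its groups did not overlap (log2 fold change 1.34, SE 0.195, adjusted p = 0.00152). Ccl3 and Ccl4, which draw monocytes and T cells, rose by 2.86 and 1.98, and Cxcl3, Cxcl1 and Cxcl6, further neutrophil attractants, by 3.02, 1.24 and 1.47. Cxcl12, which keeps blood stem cells in marrow, is a product of stroma rather than of macrophages. It measured 97.4, 76.4 and 89.6 FPKM in KO and 32.1, 27.6 and 24.6 in WT, with the KO libraries in a narrow band above WT (log2 fold change 1.72, SE 0.121, adjusted p = 6.17e-05). The membrane-bound chemokine Cx3cl1 fell, just short of a call (adjusted p = 0.00616).

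**Figure D2:**
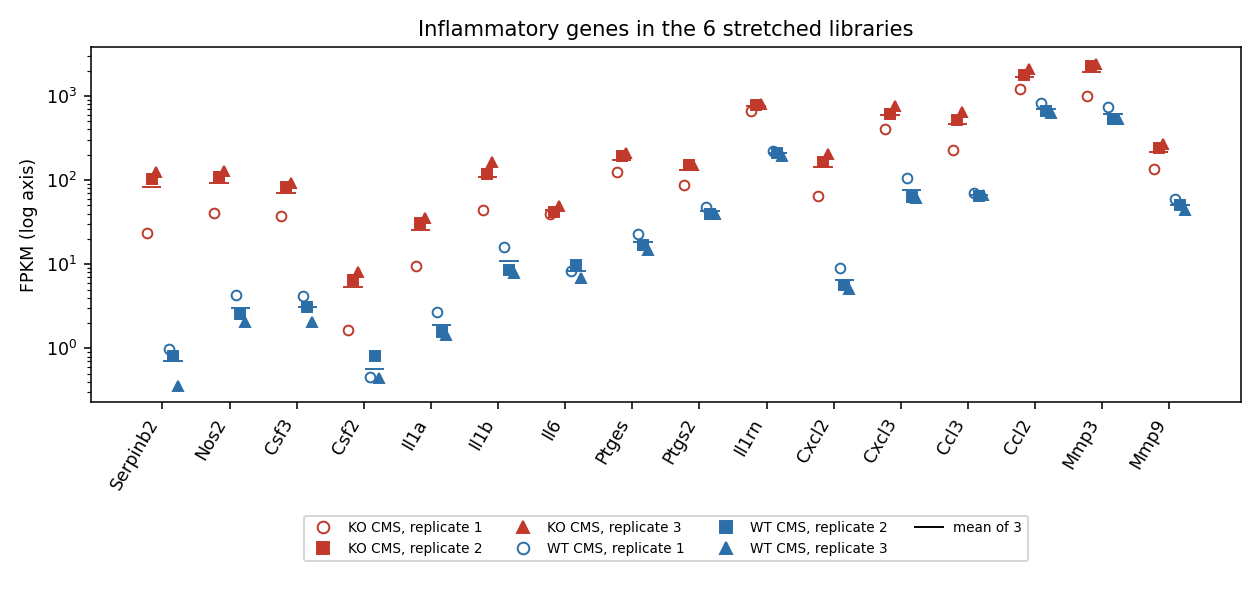
FPKM on a log axis of 16 inflammatory genes in each stretched library (KO red, WT blue, replicate 1 as open circles), with the mean of 3 as a line. The 3 KO libraries lie above the 3 WT libraries for every gene drawn, and KO replicate 1 is the lowest KO library in each, as for Nos2 (40.4 against 109 and 129).

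Matrix metalloproteinases, enzymes that cut matrix and cytokines, rose together with a fall of some inhibitors and of urokinase. Of 34 tested proteases and inhibitors 17 rose and 8 fell, 8 called higher and 2 called lower, with a median of 0.241. The stromelysin Mmp3 was the most abundant called gene of the comparison and measured 994, 2280 and 2430 FPKM in KO and 749, 531 and 533 in WT. KO replicate 1 lay closer to WT than replicates 2 and 3, without overlap (log2 fold change 1.73, SE 0.326, adjusted p = 0.00513). Mmp9, a gelatinase of macrophages and osteoclasts, averaged 215 ± 69.2 FPKM in KO and 51.3 ± 7.91 in WT (log2 fold change 2.14, SE 0.249, adjusted p = 0.000548). The collagenase Mmp13 and the stromelysin Mmp10 rose by 1.57 and 1.78, and the more abundant Mmp2 and Mmp12 by 0.42 and 0.64, short of a call. The inhibitor Timp3 fell by 1.51 and urokinase, Plau, by 1.61 on the log2 scale, while Timp1 rose by 0.56. The count of members that fell was 5 without KO CMS replicate 2 and without any single WT library.

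Glycolytic enzymes and hypoxia-inducible genes were higher in KO with no exception that passed the test. Of 32 tested members 29 rose and none fell, 15 of them called, with a median of 0.961. Slc16a3, the lactate exporter, measured 132, 133 and 151 FPKM in KO and 34.8, 28.8 and 28.2 in WT, and the KO libraries were within a narrow band about 4 times WT (log2 fold change 2.25, SE 0.0998, adjusted p = 2.09e-05). Ldha, which makes lactate, measured 798, 760 and 862 FPKM in KO and 444, 388 and 389 in WT (log2 fold change 1.06, SE 0.0719, adjusted p = 5.65e-05). Pfkfb3, which makes the activator of phosphofructokinase, measured 54.1, 32.6 and 57.6 FPKM in KO and 12.4, 10.7 and 11.6 in WT, with KO replicate 2 the lowest of KO (log2 fold change 2.13, SE 0.204, adjusted p = 0.000223). The glucose transporter Slc2a1 rose by 1.25 and the enzymes Pgk1 and Tpi1 by 1.24 and 1.37. Hif1a, which codes for the oxygen-regulated factor, rose by 0.96. The prolyl hydroxylases Egln1 and Egln3, which mark it for decay, rose by 1.14 and 1.86. With library totals in place of TMM scaling, 11 of the 32 were called, 29 rose and 1 fell.

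Genes of amino acid supply and stress moved the same way by less. Of 27 tested members 19 rose and none fell, with 4 called and a median of 0.439. These 4 were Gdf15, a stress hormone (99.3 ± 27.4 FPKM in KO and 28.5 ± 2.08 in WT, change 1.88), Slc7a11 and Slc3a2, which form the cystine importer (1.77 and 1.07), and the kinase-like Trib3 (1.38). Among 26 antioxidant genes 14 rose and 4 fell, with 3 called higher, and 2 fell without WT CMS replicate 2. Mitochondrial superoxide dismutase, Sod2, measured 662, 716 and 820 FPKM in KO and 377, 323 and 308 in WT, with groups apart (log2 fold change 1.20, SE 0.102, adjusted p = 0.000135), and heme oxygenase 1, Hmox1, rose by 0.86 short of a call. Extracellular superoxide dismutase, Sod3, and the microsomal transferase Mgst1 fell by 0.31 and 0.55 on the log2 scale. Of 14 xenobiotic and aldehyde genes 6 rose and none fell, or 1 without KO CMS replicate 1 or WT CMS replicate 2, led by Cyp7b1, an oxysterol hydroxylase (37.2 ± 9.23 FPKM in KO and 4.08 ± 0.711 in WT, change 3.26). Akr1b1, the aldose reductase, and the metallothionein Mt2A, both among the 12 most abundant called genes, rose by 1.73 and 1.39.

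Immediate early genes, which respond within minutes to hours to growth and stress signals, were split. Of 33 tested, 15 rose and 5 fell, with 4 called higher. The called genes were Csrnp1 (1.96), Ier3 (1.51), Maff (1.36) and Phlda1 (1.25). Dusp6, a phosphatase that damps ERK, and the stress factor Atf3 fell short of a call (-0.64 and -0.52). Without KO CMS replicate 3 or WT CMS replicate 3, 2 of the list fell. Jun and Myc did not pass (-0.01 and 0.07).

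Secreted growth factors were mixed in direction, with more higher than lower. Of 27 tested 13 rose and 5 fell, 7 called higher and 3 lower, or 5 lower without KO CMS replicate 2. Hgf, a growth factor of epithelia and endothelia, averaged 9.43 ± 0.961 FPKM in KO and 2.24 ± 0.213 in WT, and its receptor Met rose as well (2.15 and 1.58). Ereg, a ligand of the EGF receptor, averaged 44.7 ± 10.4 FPKM in KO and 9.56 ± 0.999 in WT (2.30), whereas Areg, another such ligand, fell (-1.21). The ErbB ligand Nrg1 rose by 2.13 and Vegfa, the main angiogenic factor, by 0.94. Midkine and pleiotrophin, Mdk and Ptn, fell by 1.09 and 1.22 on the log2 scale. Of 25 tested receptor tyrosine kinases 12 rose and 7 fell, with the neurotrophin receptor Ntrk2 and Met called higher. Called lower were Csf1r, the receptor of Csf1 (-1.47), the PDGF receptor Pdgfrb (-1.13), Mertk (-1.38), Flt1 (-1.24) and Erbb3 (-1.03), the last not without KO CMS replicate 3 or WT CMS replicate 2 (-0.99 in both). The relative of Pdgfrb, Pdgfra, rose by 0.48.

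Of 37 tested members of TGF-beta and BMP signalling 12 rose and 5 fell, 7 called higher and 1 lower, and these 8 code for secreted proteins. Fst, the follistatin that binds activins, measured 80.1, 119 and 139 FPKM in KO and 16.2, 15.4 and 12.2 in WT, with no overlap (log2 fold change 3.02, SE 0.215, adjusted p = 6.52e-05). Bmp2, a bone-forming ligand, averaged 11.7 ± 4.21 FPKM in KO and 1.68 ± 0.436 in WT and rose by 2.88, while Bmp4 averaged 1.13 ± 0.174 FPKM in KO and 3.21 ± 0.709 in WT and fell by 1.43 on the log2 scale. The BMP antagonist Grem1 rose by 0.67 and the activin subunit Inhbb by 1.20. Of the receptors Tgfbr1 fell (-0.63) and Tgfbr2 did not pass (0.07). Of 21 tested Wnt genes 9 rose and 6 fell. The secreted antagonists split, with Sfrp1 (2.01) and Sfrp2 (1.89) higher and Frzb lower (-1.62). Of 7 Notch genes 2 rose and 3 fell with none called, or 1 called lower without KO CMS replicate 2, KO CMS replicate 3 or WT CMS replicate 3, the receptor Notch1 among those that fell (-0.80) and the ligand Jag1 among those that rose (0.67).

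Mitosis genes fell nearly without exception in stretched KO cells. Of 43 tested members 42 fell and none rose, 37 of them called, with a median of -1.63, and the spindle checkpoint gene Bub3 alone did not pass. Mki67, the marker of dividing cells, measured 5.14, 3.84 and 3.49 FPKM in KO and 23.3, 21.4 and 22.4 in WT, so every KO library was below every WT library (log2 fold change -2.35, SE 0.136, adjusted p = 3.39e-05). Cdk1, the kinase that drives entry into mitosis, measured 6.98, 4.84 and 4.53 FPKM in KO and 19.5, 20.7 and 21.8 in WT (log2 fold change -1.85, SE 0.16, adjusted p = 0.000146). KO replicate 1, the lowest KO library for inflammatory genes, was the highest of KO for both. Top2a, which untangles chromosomes, and the cyclin Ccna2 fell as well (-1.87 and -1.98), as did the kinase Plk1 (adjusted p = 2.84e-05). Racgap1, needed for cytokinesis, had the lowest value (-2.52). The summed level of the list was 139 to 167 FPKM in KO and 385 to 408 in WT.

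DNA replication genes fell by less. Of 50 tested members 41 fell and 1 rose, 16 called lower, with a median of -0.709. Mcm5, a subunit of the replicative helicase, averaged 2.53 ± 0.468 FPKM in KO and 9.87 ± 0.761 in WT (-1.89) and the methylation reader Uhrf1 2 ± 0.0634 FPKM in KO and 8.02 ± 0.825 in WT (-1.93). Pcna, the clamp of replicative polymerases and the most abundant member, measured 55.8, 56.9 and 53 FPKM in KO and 72.2, 73.7 and 70.1 in WT, a smaller difference without overlap (log2 fold change -0.31, SE 0.0459, adjusted p = 0.00176). Rrm2, which makes deoxynucleotides, fell by 1.30 on the log2 scale, and the ligase Lig1 rose by 0.70. Of 27 tested G1 regulators 4 rose and 11 fell, 6 called lower. The cyclin Ccnd1 fell by 0.87 and the factors E2f2 and E2f8 by 2.09 and 2.48 on the log2 scale, while the inhibitor Cdkn1a rose by 0.68. Of 18 senescence and death genes 9 rose and 2 fell, with Il6 called higher and the survival gene Bcl2 called lower (-1.08), though not without KO CMS replicate 2 (-0.90) or WT CMS replicate 3 (-0.96). Without WT CMS replicate 3 that list had 5 members that rose.

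**Figure D3:**
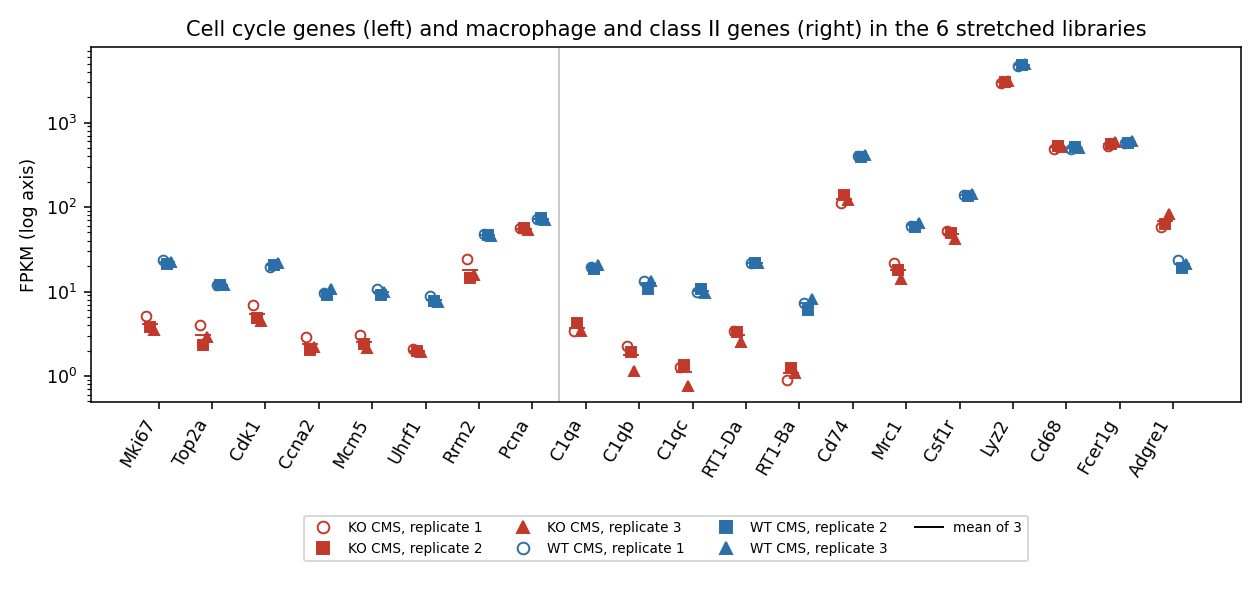
FPKM on a log axis of 8 cell cycle genes (left of the grey line) and 12 macrophage and class II genes (right) in each stretched library, KO red and WT blue, with the mean of 3 as a line. The KO libraries lie below WT for the cell cycle genes, C1q and the class II genes, near WT for Cd68 and Fcer1g, and above WT for Adgre1.

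Macrophage genes were split between those that fell and those that did not pass. Of 20 tested markers 11 fell and 2 rose, 6 called lower and 1 called higher, with a median of -0.349. The C1q genes, which code for the recognition part of classical complement, were far lower. C1qa measured 3.37, 4.22 and 3.42 FPKM in KO and 19.3, 18.6 and 20.4 in WT (log2 fold change -2.33, SE 0.115, adjusted p = 2.57e-05), and C1qb and C1qc fell too (-2.73 and -3.08). The mannose receptor Mrc1 averaged 17.8 ± 3.66 FPKM in KO and 60.8 ± 2.91 in WT (-1.70). Lyz2, lysozyme, was the most abundant marker at 2900, 3060 and 3070 FPKM in KO and 4670, 4860 and 5000 in WT, with no overlap and a fold short of a call (log2 fold change -0.61, SE 0.0375, adjusted p = 4.1e-05). The pan-macrophage genes Cd68 (0.10), Tyrobp (0.00) and Fcer1g (-0.00) did not pass. Adgre1, the F4/80 antigen, went the other way, at 57.7, 62.2 and 82.4 FPKM in KO and 23.3, 18.8 and 21 in WT (log2 fold change 1.76, SE 0.146, adjusted p = 0.000124). The summed level of the markers was 5270 to 5700 FPKM in KO and 7720 to 8060 in WT. In bulk RNA, fewer cells of a type and less RNA per cell cannot be told apart. Only 1 of the 20 markers rose without KO CMS replicate 2 or 3 or WT CMS replicate 2 or 3. Without KO CMS replicate 1, 5 rose, Cd68 among them (0.14, adjusted p = 0.0177).

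MHC class II genes, which present antigen on macrophages and other specialised cells, were lower in KO, with all 6 class II chains tested in the antigen presentation list called lower. RT1-Da, a class II alpha chain, measured 3.39, 3.28 and 2.56 FPKM in KO and 21.8, 21.5 and 21.8 in WT, with tight groups far apart (log2 fold change -2.74, SE 0.104, adjusted p = 1.08e-05). RT1-Ba, RT1-DMb and the invariant chain Cd74 fell too (-2.65, -1.94 and -1.62), and Cd74 averaged 124 ± 14.1 FPKM in KO and 403 ± 10.5 in WT. Of 28 tested members of antigen presentation 8 were called lower, namely 6 class II chains, Cd74 and the costimulator Cd86, and none was called higher, although 1 was without KO CMS replicate 1 or WT CMS replicate 1. The class I genes RT1-A1 and RT1-A2 did not pass in edgeR (0.24 and 0.30). They passed as higher in DESeq2 (adjusted p = 0.0479 and 0.011), without WT CMS replicate 2 (RT1-A1, adjusted p = 0.0384) and without KO CMS replicate 1 (RT1-A2, adjusted p = 0.00667). At the adjusted p alone 9 fell and 5 rose, but 1 rose without WT CMS replicate 2 or 3, 2 without KO CMS replicate 3, 3 without KO CMS replicate 2 and 8 without KO CMS replicate 1.

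Complement genes were divided, with 5 of 24 tested called higher and 5 called lower. Factor B, C3, the shield protein Cd55 (1.94), the protease Masp1 (1.63) and C1qtnf3 were higher. The C1q genes, properdin (Cfp, -1.13) and factor D (Cfd, -1.45) were lower. Of 7 tested osteoclast genes 4 rose and 1 fell, but none fell without KO CMS replicate 3, WT CMS replicate 1 or WT CMS replicate 2. Beside Mmp9 the called ones were Ocstamp (1.27) and the proton pump subunit Atp6v0d2 (56.7 ± 3.87 FPKM in KO and 29.7 ± 3.5 in WT, change 1.01, with 0.95 without KO CMS replicate 3 and 0.91 without WT CMS replicate 2). Among 27 interferon-stimulated genes 11 rose and 3 fell, 2 called higher and 1 lower. With library totals in place of TMM scaling 7 rose and 5 fell, and with limma on log2(FPKM + 1) 7 and 8. The number that rose was 7 without KO CMS replicate 2, 6 without WT CMS replicate 2 and 5 without WT CMS replicate 3, and 5 fell without KO CMS replicate 1. Oasl, an antiviral protein, led at 27 ± 6.09 FPKM in KO and 5.9 ± 0.765 in WT (2.27). Of the blood cell markers Cd2 was called higher (2.21) and Pf4 passed as slightly lower (-0.16, adjusted p = 0.0266) but not without KO CMS replicate 2, WT CMS replicate 1 or WT CMS replicate 3 (adjusted p = 0.0656 to 0.0934), and of 16 endothelial markers 5 were tested, with Esam called higher (1.51) and Flt1 lower.

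Stromal markers were higher more often than lower in stretched KO cells. Of 20 tested markers 12 rose and 3 fell, 3 called higher and 2 lower, with a median of 0.305 and a summed level of 3860 to 3970 FPKM in KO against 3300 to 3450 in WT. Cdh2, N-cadherin, averaged 30.3 ± 2.54 FPKM in KO and 6.05 ± 0.785 in WT (log2 fold change 2.40, SE 0.109, adjusted p = 2.2e-05), and Angpt1, a vessel-stabilising factor, rose by 1.16 beside Cxcl12. Thy1 and Cd44, surface markers of MSCs, both rose by 0.75. The factors Ebf1 and Ebf3 of marrow stroma fell (-0.59 and -1.39), as did Pdgfrb.

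Lineage genes did not move as 1 programme. Of 10 tested osteoblast genes 6 rose and 1 fell, or 2 fell without KO CMS replicate 1. Alpl, the alkaline phosphatase of mineralising cells, measured 4, 3.71 and 2.71 FPKM in KO and 2.34, 2.12 and 1.72 in WT (log2 fold change 0.82, SE 0.187, adjusted p = 0.0114), and Spp1 and Col1a1 rose by 0.59 and 0.48. Runx2, the master factor of osteoblasts, measured 5.58, 5.24 and 5.13 FPKM in KO and 5.78, 6.77 and 5.62 in WT and did not pass (-0.11, adjusted p = 0.321, 95% interval -0.334 to 0.111). Dlx3 was called lower (-1.99). Bglap, osteocalcin, held 0 and 16 counts in KO and WT and was not tested. Of 14 adipocyte genes 5 rose and 5 fell. Fabp4, the fatty acid carrier of adipocytes and macrophages, measured 258, 311 and 244 FPKM in KO and 614, 735 and 770 in WT, with KO below WT throughout (log2 fold change -1.30, SE 0.112, adjusted p = 0.00014), and the lipase Lpl and the factor Pparg were lower (-1.48 and -2.12) while Cebpb was higher (0.86). Of 9 cartilage genes 3 rose and 5 fell. Prg4, the joint lubricant, was the most abundant called gene of this list and measured 151, 141 and 140 FPKM in KO and 663, 599 and 597 in WT, with narrow groups (log2 fold change -2.03, SE 0.0567, adjusted p = 5.76e-06). Of 8 tendon genes 1 rose and 2 fell, with 4 that fell without KO CMS replicate 1 and 1 without KO CMS replicate 3 or WT CMS replicate 3, and of 18 smooth muscle genes 5 rose and 2 fell, among them Des, desmin, called lower (-2.54), while Acta2 and Tagln did not pass (0.18 and 0.03).

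Matrix genes split by kind. Of 18 tested collagens 6 rose and 6 fell, and 10 fell without KO CMS replicate 1. The basement membrane chains Col4a1 and Col4a2 fell by 0.88 and 0.90 on the log2 scale, and Col15a1 and Col18a1, which lie beside such membranes, by 1.66 and 1.57. Col12a1, a fibril-bound chain of tendon and loaded tissue, rose by 1.25, or by 0.96 and short of a call without KO CMS replicate 1, and Col3a1 did not pass (-0.24) in edgeR unless KO CMS replicate 1 was left out (-0.40, adjusted p = 0.000208), and passed in DESeq2 (-0.24, adjusted p = 0.0426). Of 47 glycoproteins and proteoglycans 19 rose and 9 fell, or 14 without KO CMS replicate 1. Thbs1, a matrix protein that activates TGF-beta, averaged 428 ± 62 FPKM in KO and 182 ± 8.85 in WT (1.31), and Lox, which crosslinks collagen, 340 ± 36 FPKM in KO and 150 ± 2.85 in WT (1.25). Fibronectin (Fn1), the most abundant, and Sned1 fell (-0.38 and -2.64). With library totals in place of TMM scaling 16 rose and 14 fell. Of 19 integrins 8 rose and 5 fell, and 5 rose without WT CMS replicate 2. The collagen receptor chains Itga1 and Itga2 were called higher (1.26 and 1.67), the fibronectin receptor chain Itga4 was called lower (-1.73), and the shared chain Itgb1 rose by 0.19.

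Genes that sense stretch passed the test at a share near that of all tested genes (31.2% and 37%). Piezo1, the stretch-gated channel, measured 55.6, 69.8 and 70.3 FPKM in KO and 55, 51.1 and 50.5 in WT, a small rise without a call (log2 fold change 0.40, SE 0.0939, adjusted p = 0.0136), which missed the threshold without WT CMS replicate 2 (adjusted p = 0.0504) or 3 (0.0530). Of 16 tested channels and receptors 2 rose and 3 fell, with 1 that rose without KO CMS replicate 2 or WT CMS replicate 1 and none without WT CMS replicate 2 or 3, and P2rx7, an ATP-gated channel of macrophages, was the only call (-2.51), with 1 more called lower without KO CMS replicate 1. Yap1 measured 36.1, 40.2 and 41.5 FPKM in KO and 32.2, 30.4 and 29.7 in WT (log2 fold change 0.43, SE 0.0671, adjusted p = 0.00225). Of 33 YAP and TEAD genes and targets 16 rose and 6 fell (66.7%), 1 called higher and 2 lower. The excess of rises depended on scaling. With library totals in place of TMM scaling 9 of the 33 rose and 8 fell, and with limma on log2(FPKM + 1) 9 and 6. Without WT CMS replicate 3 10 of them rose, and 2 were called higher without KO CMS replicate 1 or WT CMS replicate 1 and 3 without KO CMS replicate 2. The best-known targets went apart, with Ccn1 higher (0.90) and Ccn2 lower. Ccn2 measured 94.8, 66.6 and 58.8 FPKM in KO and 190, 218 and 218 in WT, with no overlap (log2 fold change -1.43, SE 0.165, adjusted p = 0.000533). The other lower call was Birc5, a mitosis gene as well.

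Irs1, the target that the study assigns to miR-337-3p, was not higher in stretched KO cells. It measured 1.75, 1.78 and 1.64 FPKM in KO and 2.11, 2.24 and 2.15 in WT, so the 3 KO libraries lay below the 3 WT libraries by FPKM, and the difference missed the threshold (-0.25, SE 0.0863, adjusted p = 0.0569). Its 95% interval, which unlike the p-value is not adjusted for the number of genes tested, ran from -0.489 to -0.00989 on the log2 scale. With library totals or upper quartiles in place of TMM scaling it passed as lower in KO (-0.33, adjusted p = 0.0211, and -0.30, adjusted p = 0.0296). RNA level does not show a block of translation, and the sites of the microRNA in this transcript were not analysed here. Of 21 insulin and IGF genes 7 rose and 4 fell. The ligand Igf1 averaged 2.24 ± 0.318 FPKM in KO and 9.5 ± 0.621 in WT and fell by 2.00 on the log2 scale, and the binding proteins Igfbp3 and Igfbp4 went apart (2.33 and -1.82).

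The core of PI3K, Akt and mTOR had a median of -0.00624 over 46 tested members, of which 10 rose and 13 fell. The share that passed was 50%, against 37% of all tested genes, and 6.52% were called, against 7.55%. With library totals in place of TMM scaling 8 rose and 16 fell, and with limma on log2(FPKM + 1) 7 and 15. Akt1 measured 93.8, 95.5 and 94 FPKM in KO and 97, 93.9 and 99.2 in WT, groups that overlapped (0.04, adjusted p = 0.446), and Mtor did not pass either (0.01, adjusted p = 0.825). Called were Pik3r5, a regulatory subunit of leukocytes (1.13), and Ddit4, an inhibitor of mTOR complex 1 (1.12), both higher, and the leukocyte catalytic subunit Pik3cd, lower (-1.23), with 2 called lower without KO CMS replicate 1 or WT CMS replicate 1. The number that fell ranged from 6 to 8 without KO CMS replicate 2 or 3 or any single WT library. Over the 340 genes that the tables annotate to the PI3K-Akt pathway, 238 were tested, 69 rose and 51 fell, and 19 were called in each direction, with a median of 0.0355. Of these 238 genes 50.4% passed and 16% were called, against 37% and 7.55% of all tested genes. That annotation holds growth factors, matrix proteins and integrins described above.

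HOX genes and limb factors, which keep a record of where in the body a cell came from, also differed in part. Whether the origin of the cells differed was not tested. Of 11 tested HOX genes 3 rose and 4 fell, 2 called higher and 3 lower. That is 63.6% passed and 45.5% called, against 37% and 7.55% of all tested genes. Without KO CMS replicate 2, KO CMS replicate 3, WT CMS replicate 1 or WT CMS replicate 3 only 2 fell, and without KO CMS replicate 3 only 1 was called lower. Hoxc8 measured 4.46, 5.8 and 5.21 FPKM in KO and 0.863, 0.827 and 0.773 in WT, with KO above WT throughout (log2 fold change 2.72, SE 0.146, adjusted p = 2.99e-05), and its neighbour Hoxc6 rose by 1.71. Hoxa11 (ENSRNOG00000059870) and Hoxd9, of other clusters, were lower (-1.07 and -1.14), with folds just under the limit without KO CMS replicate 3 (-0.999) and without KO CMS replicate 1 (-0.97) respectively. Of 26 limb and skeletal patterning factors 13 rose and 4 fell (65.4% passed), 8 called higher and 2 lower (38.5% called), and 7 fell without KO CMS replicate 1. Meis2, a cofactor of HOX proteins, averaged 2.59 ± 0.156 FPKM in KO and 0.456 ± 0.0847 in WT (2.57), and Tbx2 and En1 rose by 2.01 and 1.90. The hindlimb genes Tbx4 and Pitx1 fell (-1.81 and -0.94).

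Retinoid genes stood out on both sides. Beside the fall of Aldh1a2, the retinoic acid-binding protein Crabp1 was far higher. Crabp1 measured 19, 18 and 19.8 FPKM in KO and 2.38, 4.37 and 2.66 in WT (log2 fold change 2.67, SE 0.229, adjusted p = 0.000139). Of 15 tested retinoid and steroid genes 5 rose and 4 fell. Of 25 axon guidance genes 12 rose and 6 fell, 5 called higher and 2 lower, with the ephrin ligand Efnb2 at 40.5 ± 5.94 FPKM in KO and 8.86 ± 0.885 in WT (2.27) and the secreted cue Slit3 at 56.9 ± 9.16 FPKM in KO and 17.1 ± 0.429 in WT (1.81). Fam111a, a protease of replicating cells, measured 48.7, 46.1 and 46.9 FPKM in KO and 7.59, 6.49 and 7.12 in WT, narrow groups far apart (log2 fold change 2.82, SE 0.0683, adjusted p = 3.26e-06).

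Lipid synthesis was also listed. Of 26 sterol genes 4 rose and 2 fell, 23.1% against 37% of all tested genes, and Hmgcs1, the synthase near the head of the pathway, did not pass (-0.02, adjusted p = 0.798, 95% interval -0.204 to 0.155). Of 15 fatty acid genes 4 rose and 3 fell, 46.7%, with none called, Fasn among those that fell (-0.25), and 2 rose without KO CMS replicate 2 or WT CMS replicate 3. With library totals in place of TMM scaling the order of both lists turned, to 3 that rose and 5 that fell and to 2 and 6. Around the deleted microRNA, 5 of 23 listed genes of the imprinted locus and its neighbours were tested, 1 rose and 2 fell, and none was called. None fell without KO CMS replicate 2, WT CMS replicate 1 or WT CMS replicate 3, and 1 fell without KO CMS replicate 3 or WT CMS replicate 2. The one that rose was Wars1, a tRNA synthetase (0.42). Of 16 other imprinted genes 3 fell, with Plagl1 called lower (-1.10) except without KO CMS replicate 3 (-0.89), and 1 rose. The number that rose was 2 without KO CMS replicate 2 or 3 or WT CMS replicate 2 and 0 without WT CMS replicate 3. Of 4 tested sex-linked genes 1 rose by less than a fold of 2, but none did without any one library other than KO CMS replicate 1, without which 1 also fell, and with library totals none rose and 2 fell.

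The comparison was then set beside those of starved and of serum-fed cells, to ask whether the genotype difference depended on the treatment. The 3 comparisons use different libraries and were fitted together over 18 libraries and 13317 genes. Against SSt, the difference changed past the same limits for 1787 genes (13.4%), 901 toward higher in KO under CMS (6.77%) and 886 toward lower (6.65%). Against FBS it changed for 199 genes (1.49%), 45 toward higher (0.338%) and 154 toward lower (1.16%). The count against FBS was 486 without KO FBS replicate 1, 165 and 321 by direction. It was 122 to 131 without any one of WT CMS replicate 3, KO CMS replicate 3, WT FBS replicate 2 and KO FBS replicates 2 and 3.

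Of the 422 genes called higher in KO under CMS, 67 were called higher under SSt as well, where 2.67% of 13317 genes were, and 126 were called lower there, where 4.66% were. Under FBS 215 were called higher, where 2.5% of all genes were, and 1 lower. Of the 521 called lower under CMS, 74 were called lower and 37 higher under SSt, and 125 lower and 0 higher under FBS, where 1.52% of all genes were called lower. Without KO FBS replicate 1 the counts under FBS were 154 higher for the first set and 91 lower for the second. The median difference of the 422 genes was 1.45 under CMS, -0.354 under SSt and 1.08 under FBS, and that of the 521 genes was -1.49, 0.2 and -0.634. The genes were chosen for a large difference under CMS, so the CMS medians are large by that choice and their sizes cannot be compared with the others.

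**Figure D4:**
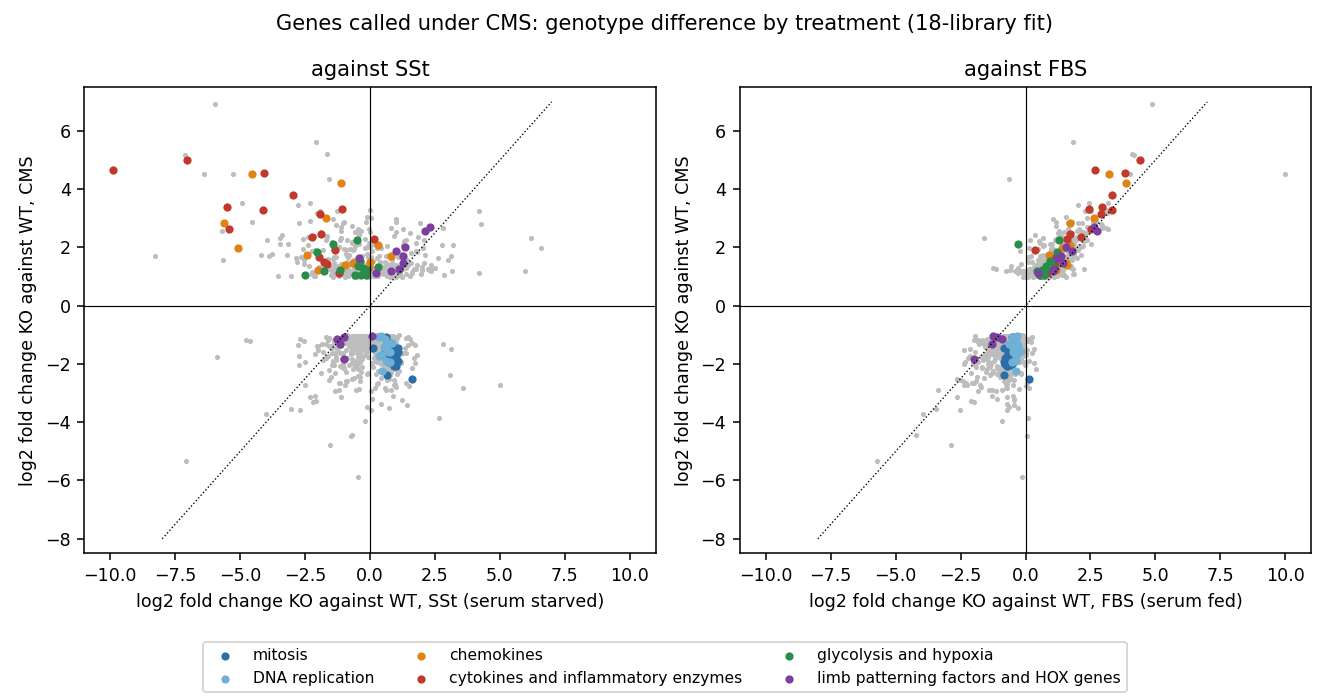
Log2 fold change of KO against WT under CMS (vertical axis) against that under SSt (left) and FBS (right) for 942 genes called under CMS, leaving out 1 gene with no count in KO, with list members coloured and equal differences on the dotted line. Cytokines lie mostly at opposite signs under CMS and SSt, with list medians of 1.44 and -1.37, and on the same side under CMS and FBS (1.12), while HOX and limb factors lie mostly near the dotted line in both panels.

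Inflammatory genes had opposite genotype differences in stretched and in starved cells. Under SSt Nos2 measured 4.68, 2.87 and 2.72 FPKM in KO and 401, 432 and 448 in WT, and under FBS 239, 22 and 11.8 in KO and 4.07, 4.26 and 4.96 in WT. KO was thus the lower genotype under SSt and the higher under CMS, a difference between treatments of 12.06, SE 1.36, adjusted p = 6.43e-06. Under FBS the 3 KO libraries lay above WT too, with replicate 1 far above the others, and the difference between CMS and FBS did not pass (0.60, adjusted p = 0.828) unless KO FBS replicate 1 was left out (3.08, adjusted p = 0.00202). Of 41 matched members of the cytokine list 25 changed toward higher in KO against SSt and 3 toward lower, and of 35 matched chemokines 17 and 1. Of all genes 6.77% changed toward higher and 6.65% toward lower. Matched members outside the 18-library fit count here as unchanged. The glycolysis list had medians of 0.951 under CMS, -0.357 under SSt and 0.524 under FBS. Of its 35 matched members 23 changed toward higher against SSt and none toward lower. Slc16a3 was an example, at 2.76 against SSt (adjusted p = 1.62e-05) and 0.94 against FBS (adjusted p = 0.129), where leaving out KO FBS replicate 1 gave 1.49 (adjusted p = 1.32e-05).

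Cell cycle genes had the reverse pattern. Under SSt Mki67 measured 37.3, 44.2 and 44.7 FPKM in KO and 24.2, 25.3 and 26.1 in WT, and under FBS 5.06, 14.8 and 17.1 in KO and 21.2, 22.7 and 22.2 in WT. The difference between treatments was -3.03, SE 0.4, adjusted p = 2.48e-05 against SSt and -1.55, SE 0.394, adjusted p = 0.0314 against FBS. The latter missed the threshold, at adjusted p of 0.0558 to 0.0848, without any single library of the 4 groups other than KO FBS replicate 1 and KO CMS replicate 1. Of 43 matched mitosis members 42 changed toward lower in KO against SSt and 12 against FBS, and of 51 matched replication members 36 and 7. Of all genes 6.65% did so against SSt and 1.16% against FBS. The list medians were -1.64 under CMS, 0.831 under SSt and -0.573 under FBS for mitosis, and -0.719, 0.563 and -0.249 for replication.

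The class II genes RT1-Da and RT1-Ba had a genotype difference under CMS unlike that under both other treatments, and C1qc one unlike that under FBS. Under SSt RT1-Da measured 28.9, 29.8 and 29.1 FPKM in KO and 9.54, 10.8 and 9.46 in WT, and under FBS 6.81, 26.2 and 28.6 in KO and 22.8, 18.8 and 20.7 in WT. KO FBS replicate 1 stood with KO CMS rather than with KO FBS replicates 2 and 3. The difference was -4.24, SE 0.47, adjusted p = 5.9e-06 against SSt and -2.75, SE 0.461, adjusted p = 0.0032 against FBS. For C1qc it was -2.622 against FBS (SE 0.48, adjusted p = 0.00532). Of 30 matched antigen presentation members 7, and of 24 matched macrophage markers 6, changed toward lower against FBS, where 1.16% of all genes did. Against SSt the lists were mixed. There 3 antigen presentation members changed toward higher and 9 toward lower, and 6 and 7 macrophage markers, beside 6.77% and 6.65% of all genes. Gdf15 was higher in KO under CMS and lower under SSt, a difference of 4.09, SE 0.316, adjusted p = 2.76e-07 against SSt and 2.08, SE 0.299, adjusted p = 0.00122 against FBS.

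A further set kept its direction in all 3 treatments. Of the 422 genes called higher under CMS 52 were called higher under both others, and of the 521 called lower 51 were called lower under both. Both counts include KO FBS replicate 1. The share of all genes called under both others was not counted. It cannot exceed the 2.5% called higher and the 1.52% called lower under FBS. The retinoid genes Aldh1a2 and Crabp1 kept their direction, but the retinoid and steroid list as a whole did not. Of its 25 matched members 4 changed toward higher in KO and 1 toward lower against SSt. The list median was 0.1 under CMS, -0.316 under SSt and 0.117 under FBS. Under SSt Aldh1a2 measured 0.0808, 0.364 and 0.151 FPKM in KO and 3.14, 2.96 and 3.27 in WT, and under FBS 1.08, 1.98 and 2.61 in KO and 31.7, 31.8 and 27.1 in WT. KO lay below WT throughout, and neither difference between treatments passed. Under SSt Crabp1 measured 13.3, 13.1 and 14.5 FPKM in KO and 1.62, 2.08 and 1.75 in WT, and under FBS 22.1, 33.4 and 32.8 in KO and 3.21, 3.19 and 4.18 in WT. KO lay above WT throughout. Prg4 was lower in KO under SSt and FBS (-2.73 and -1.94), and Fam111a was higher by 4.28 and 2.89. No HOX gene changed between treatments past the limits, and of 50 matched limb factors 1 changed toward higher and 1 toward lower against SSt. Of all genes 13.4% changed against SSt and 1.49% against FBS. With only 11 HOX genes tested under CMS, most of them low, the absence of a call does not show that they were constant. As genotype and culture cannot be told apart, whether the differences that kept their direction came with the deletion or with the cells that were plated was not tested.

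**Figure D5:**
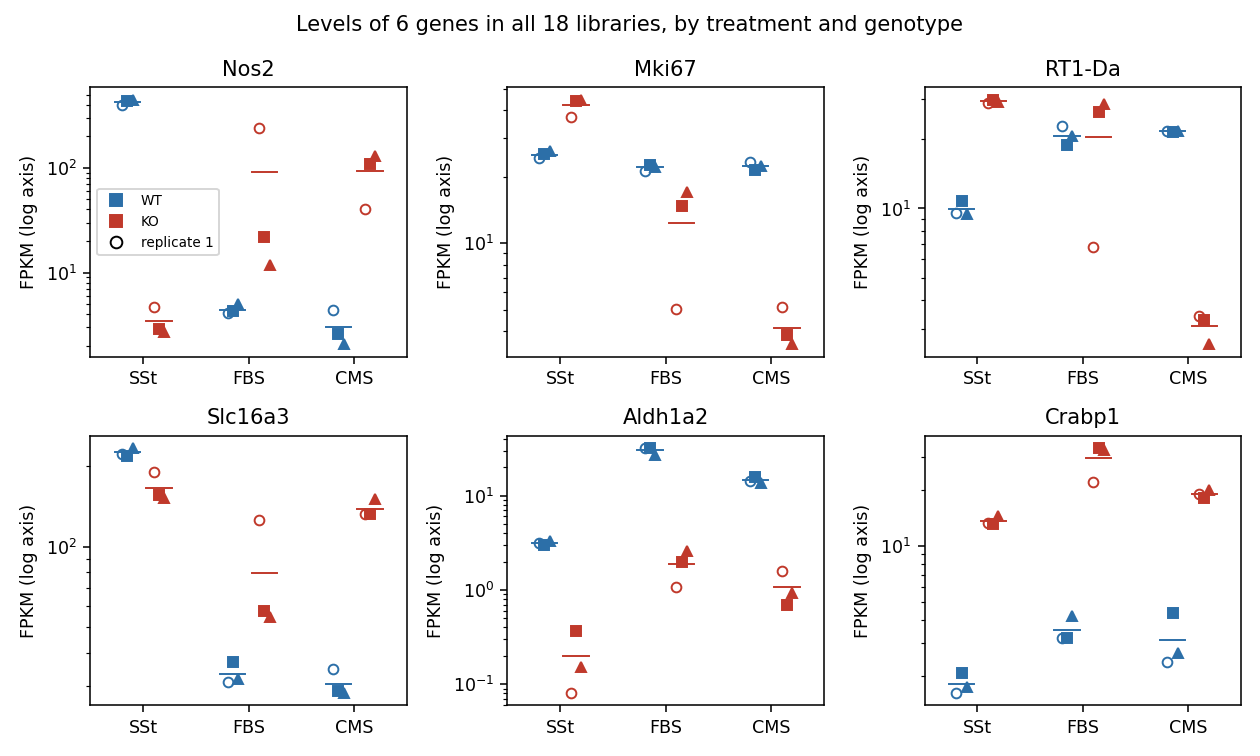
FPKM on a log axis of 6 genes in all 18 libraries by treatment, WT blue and KO red, replicate 1 as open circles, with the mean of 3 as a line. Nos2, Mki67, RT1-Da and Slc16a3 change the order of the genotypes between SSt and CMS, while Aldh1a2 stays lower and Crabp1 higher in KO in every treatment, and KO FBS replicate 1 lies near KO CMS for Nos2, Mki67 and RT1-Da.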

How the data were processed

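RNA-seq of 18 libraries of cultured rat bone marrow MSCs was analysed, 3 libraries in each of 6 groups, and the comparison uses the 6 stretched ones. The authors deposited, in 1 table per genotype, an unscaled whole-number count for each of 32623 rat Ensembl genes. Beside it the authors deposited an FPKM, the same count scaled to the transcript's length and the library's total, in which a gene without reads is listed at 1e-04. The study's methods do not say how the reads were aligned and counted. Bowtie 0.12.2 and the mouse build mm10 stand in the submitters' processing notes, whereas the gene identifiers are those of rat, so no coordinate was taken from the files. Of the gene names, 1556 stand on more than 1 line, and such genes are named with their Ensembl identifier.

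The 2 tables were joined by gene identifier and the raw counts were scaled together. Genes that reached 1 FPKM in any 3 of the 6 libraries were analysed with edgeR 4.0.16 (TMM scaling, quasi-likelihood F test) in R 4.3.3, with Benjamini-Hochberg adjustment over all tested genes. A gene rose or fell at an adjusted p under 0.05 and was called with a fold of at least 2 as well. Differences between treatments were interactions in a fit of 6 group means over 18 libraries. Depth of 57.12 to 71.08 M counts makes counting error small beside the spread between libraries for all but the lowest genes. DESeq2 1.42.0, limma 3.58.1 on log2(FPKM + 0.1, 1 or 5), other scalings and filters, the replicate number as a block and each library left out were alternatives. Intervals are 95% of the t distribution around a fitted value and are not adjusted for the number of genes tested. The test was tested on simulated data with the same spread for every gene, no outlying library and no fold limit. The simulation thus does not show how the calls fare with the spread of these libraries.

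The comparison, its members and its 46 gene lists (1325 of 1378 names matched) were chosen with earlier results of these data known. The lists were described by counts and medians, and no list test was run. Named genes are the 12 highest and 12 lowest called genes of at least 5 FPKM without overlap, called genes at 0 in a group, the 12 most abundant called genes, genes the study names and members of the lists, but not every gene that the rule gives. Some genes of the lists are counted but not reported here by name. Promoter motifs and the lists shown in the plots were chosen after the values were seen. Promoters and microRNAs came from RefSeq (GRCr8).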

Additional observations from a re-analysis of the deposited data

Results flagged for a closer look

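The genotype difference under CMS was itself different under SSt for 1787 genes and under FBS for 199 genes, tested as interactions in edgeR over 18 libraries. The genes with the largest such differences in each direction are given, among those of at least 5 FPKM in a group and with counts in each of the 4 groups compared, as the log2 difference of KO against WT under CMS minus that under the other treatment.

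Against SSt, mostly inflammatory genes led toward higher in KO. The protease inhibitor Serpinb2 had 12.92 (SE 1.57, adjusted p = 1.22e-05), the pseudogene LOC100359515 12.32, the nitric oxide synthase Nos2 12.06, the secreted inhibitor Wfdc21 10.92, the myeloid receptor Siglec5 9.956 and the chemokine Cxcl2 9.072. Toward lower in KO stood the annotated microRNA ENSRNOG00000036296 at -5.423 (SE 0.474, adjusted p = 8.26e-07), LOC680920, annotated as similar to a natural cytotoxicity receptor, at -4.617, RGD1560795, annotated as similar to sepiapterin reductase, at -4.568, the class II genes RT1-Da at -4.237 and RT1-Ba at -4.057, and the cytokinesis gene Racgap1 at -4.141. RGD1560795 varied widely within groups, did not pass under CMS, and missed the threshold with the replicate block and without each of 9 libraries in turn, at adjusted p of 0.0548 to 0.11.

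Against FBS, toward higher in KO stood the pseudogene AABR07064503 (2.805), Fam210a (2.591), AABR07015057 (2.535), the glycolysis regulator Pfkfb3 (2.399), the stress hormone Gdf15 (2.075, SE 0.299, adjusted p = 0.00122) and the antiviral gene Oasl (2.069). Toward lower stood ENSRNOG00000036296 (-5.767), the myeloid gene Ms4a4e (-2.823), RT1-Da (-2.755), RT1-Ba (-2.734), C1qc (-2.622) and LOC108348139, annotated as a class II beta chain (-2.602). Fam210a, Pfkfb3 and LOC108348139 each missed the threshold without each of 6 or more libraries in turn, at adjusted p of 0.0526 to 0.0739. Fam210a was near 0.7 FPKM in the 3 KO FBS libraries and near 5 in WT FBS and in both CMS groups, so its difference lay in the FBS groups.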

How the results depend on the processing

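The 943 calls became 947 in DESeq2, 942 with RLE, 954 with upper quartiles, 966 with library totals, 1318 without the filter, 927 with limma at a pseudocount of 0.1 and 1106 in the fit of 18 libraries. They became 485 at an FPKM of at least 5 and 225 at a fold of at least 4, which test fewer genes or ask for more, 4621 with no fold limit, and 607 and 238 with limma at pseudocounts of 1 and 5, which shrink the change of low genes. Leaving out each of 6 libraries gave 881 to 1026. Against SSt the 1787 calls became 1829 in DESeq2, 1868 with library totals, 1236 at the higher filter, 5965 with no fold limit and 1707 to 1893 without each of 12 libraries. Against FBS the 199 calls became 292, 214 and 140 under the same settings, 792 with no fold limit and 122 to 486 without each library. Of 225 named genes, 214 kept their side of the threshold in every alternative that gave them a value. None changed direction where it passed in the main or the alternative fit. Direction was not compared for genes that passed in neither, such as Akt1 (0.04 with TMM scaling and -0.04 with library totals). The main fit did not pair samples by replicate number. Deviations of same-numbered KO and WT libraries correlated at -0.149, 0.0128 and 0.104, and not every library correlated best with its own number. With 3 libraries a group, these correlations cannot show whether same-numbered samples belonged together. With the replicate number as a block 929, 1778 and 179 genes were called, and Mmp13 missed the threshold (1.51, adjusted p = 0.0518). The counts of list members without each library and those under FBS without KO FBS replicate 1 were added after the data had been seen. The cause of the spread between KO FBS libraries was not tested. With 3 libraries a group, small differences of genes near 1 FPKM may be missed, and genotype and culture cannot be told apart.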
